A study of Mus musculus with 6 samples.

Results

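The genes described here are the carriers, ligands and receptors of fibroblast growth factor (FGF) signaling: the carriers Fgfbp1 and Fgfbp3, the ligands Fgf1, Fgf2 and Fgf7, and the receptors Fgfr1, Fgfr2, Fgfr3, Fgfr4 and Fgfrl1. They were taken by symbol, and all 10 were present among the 16763 genes of the table. Fgfbp1 led to the choice: in the authors' deposited table it had the smallest p of the genes higher in model, at 3.73-fold (adjusted p = 3.11e-05). Its difference between the groups is therefore given as a description, and so are those of the 9 family members named with it.

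Tumors had been raised in BALB/c mice with 4T1 cells, an established line of mouse mammary carcinoma, and all mice were labelled male. The model group carried such tumors, and no treatment is named for it. The DMDD liposome group carried the same tumors and received DMDD, which the labels give only by this abbreviation, in liposomes; its libraries are called treated below. No dose, time, age or control liposome is given. Each group had 3 libraries of tumor RNA. The labels do not tie libraries to separate mice, so the spread between libraries may be technical. Libraries held 13037500 to 15616840 counts. CPM is the count relative to the library total after TMM scaling, which adjusts the totals between libraries. In a library 3 counts stood for 0.193 to 0.230 CPM, near which counting error dominates. Markers of epithelial tumor cells were measured in all libraries, with 12 of 12 genes in the table and summed levels of 3808 to 6861 CPM. Model replicate 2 stood apart by markers of the epidermis: Krt1 had 591 counts there and 0 in the 5 other libraries, and Krt5 had 1919 counts there and at most 2 elsewhere.

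FGFs are secreted proteins that bind receptor tyrosine kinases together with heparan sulfate, and the activated receptors signal through FRS2 and the RAS and MAP kinase cascade. Many FGFs are held in the matrix by heparan sulfate. FGF binding proteins are secreted carriers that bind FGFs there and release them in a form that can reach a receptor. In mammary tissue and skin, FGF7 is made by stromal cells and acts on an epithelial splice form of FGFR2.

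The promoters of the carriers are shown because Fgfbp1 separated the groups and its relative Fgfbp3 did not. They are RefSeq sequences of build GRCm38.p6, from 250 bases before to 50 after the annotated start, 5′ to 3′ along the gene's strand. Fgfbp1 lies at chr5:43981750-43982049 (minus strand) and Fgfbp3 at chr19:36919550-36919849 (minus strand). Capitals mark TATAAA on either strand.
Fgfbp1: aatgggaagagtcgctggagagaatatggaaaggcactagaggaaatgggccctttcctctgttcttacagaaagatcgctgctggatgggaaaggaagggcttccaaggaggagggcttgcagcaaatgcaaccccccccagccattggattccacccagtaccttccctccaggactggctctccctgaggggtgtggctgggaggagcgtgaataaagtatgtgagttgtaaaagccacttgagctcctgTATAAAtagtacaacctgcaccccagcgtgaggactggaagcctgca
Fgfbp3: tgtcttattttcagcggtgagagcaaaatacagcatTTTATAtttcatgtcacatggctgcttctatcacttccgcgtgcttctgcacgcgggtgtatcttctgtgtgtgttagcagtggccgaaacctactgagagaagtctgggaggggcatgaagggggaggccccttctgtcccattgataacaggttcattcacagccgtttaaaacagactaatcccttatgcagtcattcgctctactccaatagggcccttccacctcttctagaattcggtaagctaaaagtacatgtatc

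In Fgfbp1 the TATAAA stood on the gene's own strand, starting 3 bases past the annotated start. In Fgfbp3 it stood on the opposite strand. The RefSeq table matched 8 of the 10 genes with 9 promoters, and 2 of the 9 held TATAAA on either strand, against 13.6% of all 32851 promoters of this length. GGGCGG, a letter match to the GC box, stood in 5 of the 9, those of Fgf2, Fgfr4, Fgfrl1 and both of Fgfr3, against 35.7% of all promoters. TGANTCA, a letter match to the AP-1 motif, stood in 0 of the 9, against 7.81% of all promoters. The GC content was 53.3% for Fgfbp1 and 46.7% for Fgfbp3, around the median of 52.7% of all promoters, while Fgfrl1 had 73.7%. These matches describe letters in the windows only.

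Per length, on the deposited scale of FPKM, a count relative to gene length and library total, the family fell into an abundant and a scarce set. Fgfr2 was highest, with a mean of 26.6 FPKM over the 6 libraries (17.7 to 32.4). Fgfbp1 followed at 24.2 FPKM (9.65 to 51.1), then Fgfrl1 at 20.3 FPKM (16.1 to 26.3) and Fgfr1 at 14.5 FPKM (9.86 to 18.6). The ranges of these 4 overlapped from each to the next. Compared within libraries, Fgfr2 and Fgfrl1 were each above Fgfr1 in every library. The margin was small in treated replicate 2, at 17.7 and 17.2 against 16.5 FPKM. For Fgfrl1 it was also small in model replicate 2 (19.4 against 18.6 FPKM) and model replicate 3 (16.1 against 15.3 FPKM). Fgfbp1 was the highest of the 4 in model replicates 2 and 3 and the lowest only in treated replicate 2. The next gene, Fgf1, averaged 1.63 FPKM and did not overlap with Fgfr1. Below the gap, Fgf1 (0.428 to 3.78 FPKM), Fgfr3 (0.942 to 2.61), Fgfbp3 (0.614 to 1.47), Fgf2 (0.725 to 1.58) and Fgf7 (0.162 to 2.30) again overlapped from neighbor to neighbor. Fgfr4 lay below all of them, with no value above 0.0656 FPKM. Ordered by the median in place of the mean, 6 of the 10 genes took another rank, Fgfbp1 moving from 2 to 4 and Fgf1 from 5 to 7, and the gap between the abundant and the scarce set stayed in place. The 3 ligand genes were thus all in the scarce set, and the abundant set held 3 receptor genes and 1 carrier.

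**Figure D1:**
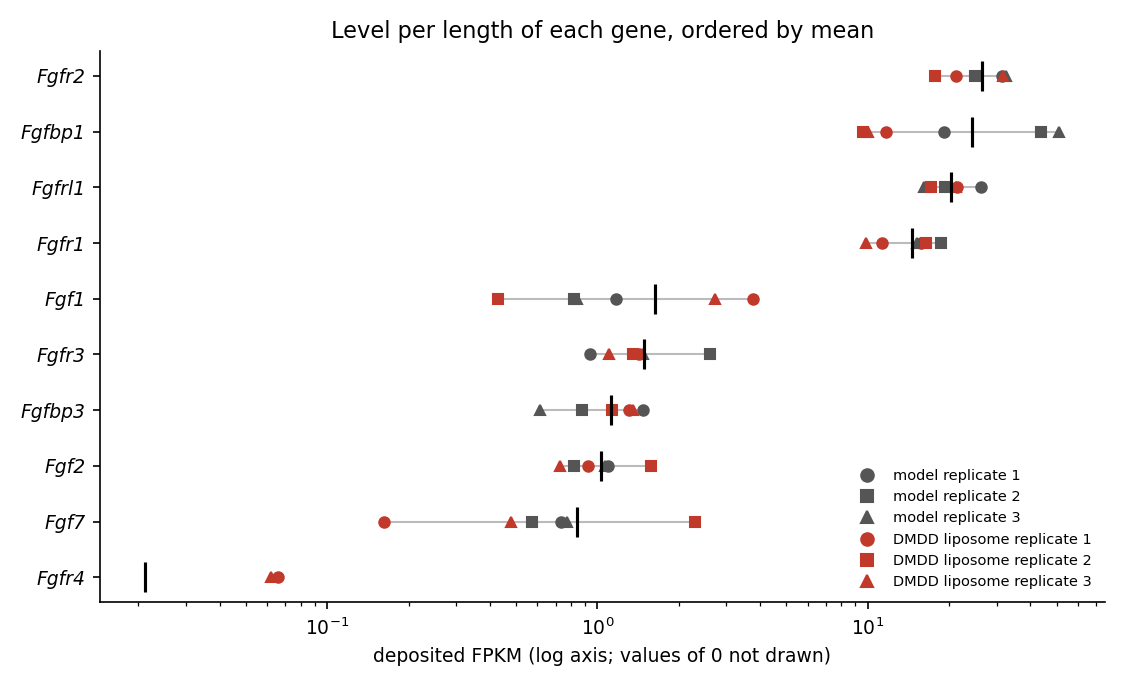
Deposited FPKM of each of the 10 genes (horizontal log axis) in each of the 6 libraries (gray model, red DMDD liposome; symbol gives the replicate), with the mean over all libraries, zeros included, as a black bar and the range as a gray line. Fgfr2, Fgfbp1, Fgfrl1 and Fgfr1 lie between 9.65 and 51.1 FPKM, and the other genes lie below 4 FPKM; Fgfr4 was at 0 in 4 libraries, which are not drawn.

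Fgfbp1, which mobilizes FGFs from the matrix, measured 43.5, 99.0 and 119 CPM in model replicates 1 to 3, and 25.8, 22.1 and 22.6 CPM in treated replicates 1 to 3. All treated libraries were below all model libraries, and model replicate 1 was the nearest of its group to them. The group means were 87.0 ± 38.9 CPM (SD, n = 3) in model tumors against 23.5 ± 2.0 CPM (SD, n = 3) after treatment. The fitted log2 fold change was -1.89 ± 0.34 (SE), or 3.70-fold lower with DMDD liposome. The log2 fold change stayed between -2.21 and -1.61 when any 1 library was left out. Without model replicate 2, the library with high Krt1 and Krt5 counts, it was -1.79. Of the 17 keratinocyte markers, 9 had 0 counts in model replicate 1 and 11 in model replicate 3, against 11, 10 and 8 in treated replicates 1 to 3. Summed keratinocyte markers were 98.4, 578 and 365 CPM in model tumors and 75.6 to 125 CPM in treated tumors. Of the 5 keratinocyte markers tested, 4 had a negative log2 fold change, with a median of -0.96. By edgeR 0 of these 5 were called, and 1 was at an unadjusted p under 0.05, lower in treated tumors. The part of keratinocyte RNA in the Fgfbp1 values was not tested.

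In bulk RNA, fewer cells of a type and less RNA per cell cannot be told apart. The 12 epithelial tumor cell markers summed to 4204, 6861 and 6107 CPM in model tumors and to 4461, 3808 and 4822 CPM in treated tumors, so these sums, in which abundant markers weigh most, overlapped between the groups. Gene by gene, 10 of the 12 markers had a negative log2 fold change, with a median of -0.58. By edgeR 0 of the 12 were called, and 5 were at an unadjusted p under 0.05, all lower in treated tumors: Cdh1, Cldn3, Cldn7, Esrp1 and Ovol1. Over all tested genes the median was 0.01 and 3.31% were lower at that p. For 4 of the 12 markers the groups did not overlap, each with its treated libraries below, beside 12.9% of all tested genes in either direction. One called marker, Cldn7, stands in the authors' deposited table. Relative to the epithelial marker sum Fgfbp1 stood at 1.03%, 1.44% and 1.94% in model tumors, and at 0.578%, 0.581% and 0.468% in treated tumors. The groups did not overlap on this scale either, and the ratio of the group means was 2.72, against 3.70 for CPM. The ratio of the group means of the marker sum itself was 1.31. Macrophage and monocyte markers, 10 of 10 in the table, had higher sums in treated tumors: they summed to 2850, 2230 and 1527 CPM in model tumors and to 3964, 2932 and 3220 CPM in treated tumors, with no overlap, and 9 of 10 had a positive log2 fold change (median 0.48). Endothelial markers, 11 of 11 in the table, had 10 positive and a median of 0.43, with overlapping sums of 374 to 616 CPM and 542 to 619 CPM. No marker of either list was called by edgeR. At an unadjusted p under 0.05 were 2 of the 10 and 4 of the 11, all higher in treated tumors, beside 4.34% of all tested genes higher at that p. The part of these marker differences, epithelial ones included, in the Fgfbp1 values was not tested.

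Fgfbp3, the other carrier, was scarce, with 34, 24 and 17 counts in model tumors and 32, 27 and 35 in treated tumors. Its levels were 1.76 ± 0.767 CPM (SD, n = 3) in model tumors against 2.23 ± 0.176 CPM (SD, n = 3) after treatment, at a log2 fold change of 0.35 ± 0.39 (SE). The highest library was model replicate 1, above every DMDD liposome library. The log2 fold change was 0.74 with model replicate 1 left out and 0.10 with model replicate 3 left out.

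**Figure D2:**
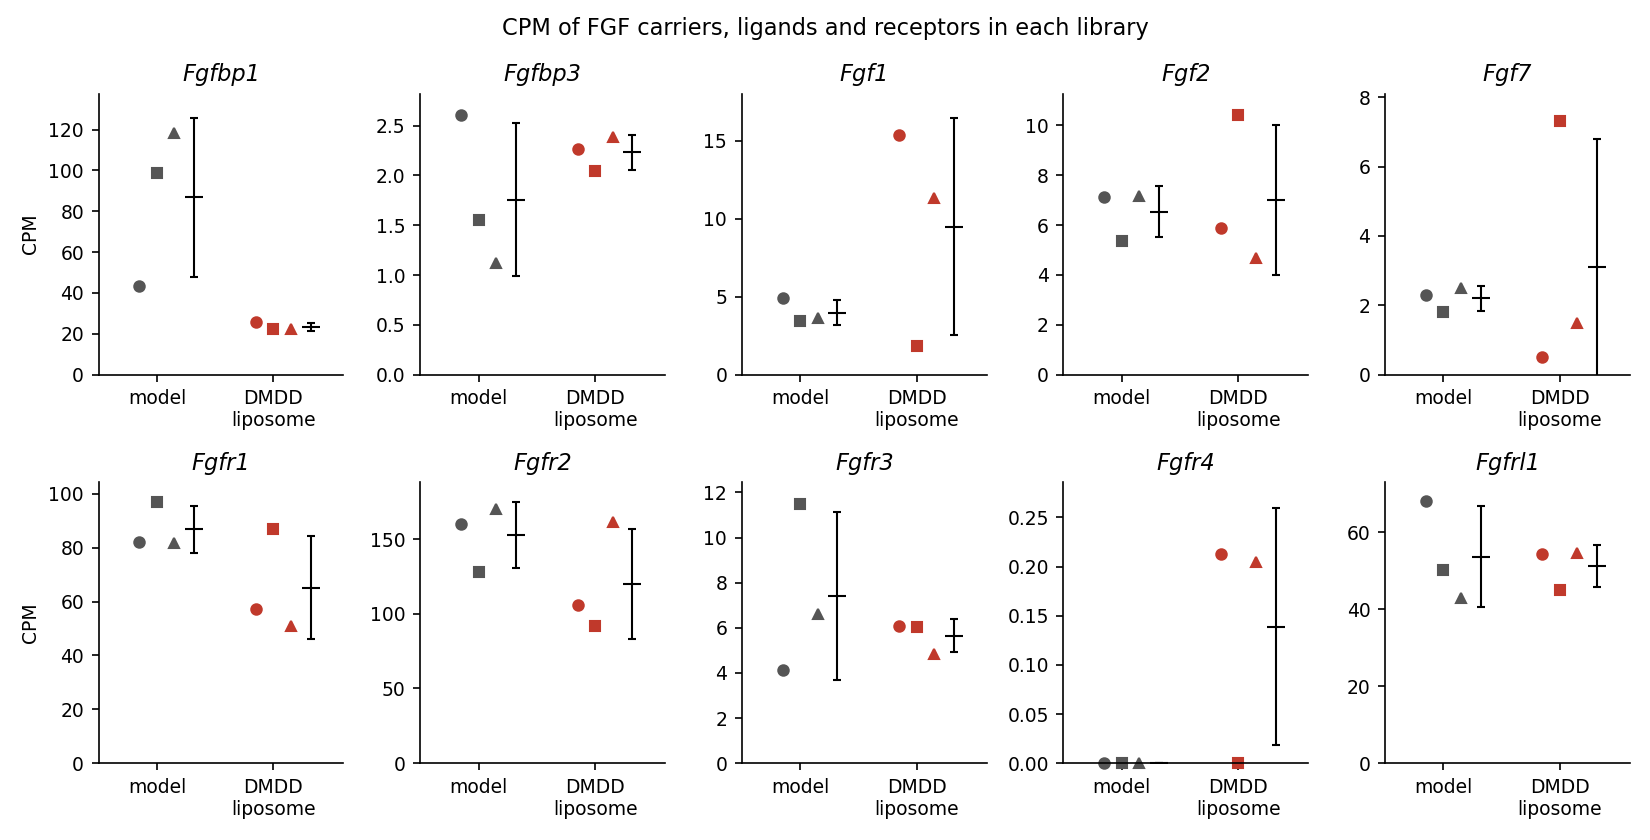
CPM (vertical axes from 0, a scale per gene) of each of the 10 genes in the 3 model (gray) and 3 DMDD liposome (red) libraries; circles, squares and triangles are replicates 1, 2 and 3, and black bars are the mean ± SD, cut at 0 for Fgf7. Fgfbp1 is the 1 tested gene whose groups do not overlap, and Fgf1, Fgf2, Fgf7 and Fgfr1 set DMDD liposome replicate 2 apart from DMDD liposome replicates 1 and 3.

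The ligands differed more between treated libraries than between the groups. Fgf1, a ligand of all FGF receptors, measured 4.91, 3.42 and 3.61 CPM in model tumors, and 15.4, 1.81 and 11.3 CPM in treated tumors. treated replicates 1 and 3 were the highest of all 6 libraries and treated replicate 2 the lowest, so the groups overlapped. The log2 fold change was 1.26 ± 0.65 (SE), 0.73 without treated replicate 1 and 1.74 without treated replicate 2. Skeletal muscle markers, 10 of 10 in the table, followed the same libraries: they summed to 143 and 283 CPM in treated replicates 1 and 3, to 34.1 CPM in treated replicate 2, and to 48.1 to 64.6 CPM in model tumors. No muscle marker was at 0 in treated replicates 1 and 3, and Myh4 was at 0 in model replicate 2 and treated replicate 2. T cell markers, 7 of 8 in the table, also moved with these libraries, at 88.1 and 69.8 CPM against 19.6 CPM in treated replicate 2 and 31.5 to 39.7 CPM in model. With treated replicates 1 and 3 left out, an alternative chosen after seeing the data, the log2 fold change of Fgf1 was -1.13 with 1 DMDD liposome library remaining. The part of muscle or T cell RNA in the Fgf1 values was not tested.

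Fgf7, a stromal growth factor for epithelial cells, had 30, 28 and 38 counts in model tumors, and 7, 97 and 22 in treated tumors. In CPM these were 2.30, 1.81 and 2.50 against 0.496, 7.33 and 1.5. treated replicate 2 was above every model library, and treated replicates 1 and 3 were below every model library. The log2 fold change of 0.49 ± 0.83 (SE) thus turned to -1.14 without treated replicate 2. Fat cell markers, 9 of 9 in the table, summed to 145 CPM in treated replicate 2 and to 53.1 and 17.1 CPM in treated replicates 1 and 3, against 24.4 to 32.8 CPM in model. Adipoq and Plin1 were among 6 fat cell markers at 0 in model replicate 1 and among 4 at 0 in treated replicate 3. Fibroblast markers, 11 of 12 in the table, were also highest in treated replicate 2, at 12579 CPM, against 5213 and 4709 CPM in treated replicates 1 and 3 and 5113 to 8469 CPM in model. Pericyte and smooth muscle markers, 10 of 10 in the table, stood at 877 CPM in that library and at 325 to 482 CPM in the other 5. The part of these cell types in the Fgf7 values was not tested.

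Fgf2, a ligand stored in the matrix on heparan sulfate, measured 7.13, 5.35 and 7.16 CPM in model tumors, and 5.88, 10.4 and 4.70 CPM in treated tumors. treated replicate 2 was again the highest library, and the DMDD liposome group held both the highest and the lowest value. The log2 fold change was 0.10 ± 0.33 (SE) and -0.31 without treated replicate 2. Summed per length, Fgf1, Fgf2 and Fgf7 came to 3.0, 2.22 and 2.69 FPKM in model tumors and 4.86, 4.30 and 3.93 FPKM in treated tumors. That sum did not overlap between the groups, with Fgf1 the largest part of it in treated replicates 1 and 3 and Fgf7 in treated replicate 2. The sum was formed after the values were seen and was not tested.

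**Figure D3:**
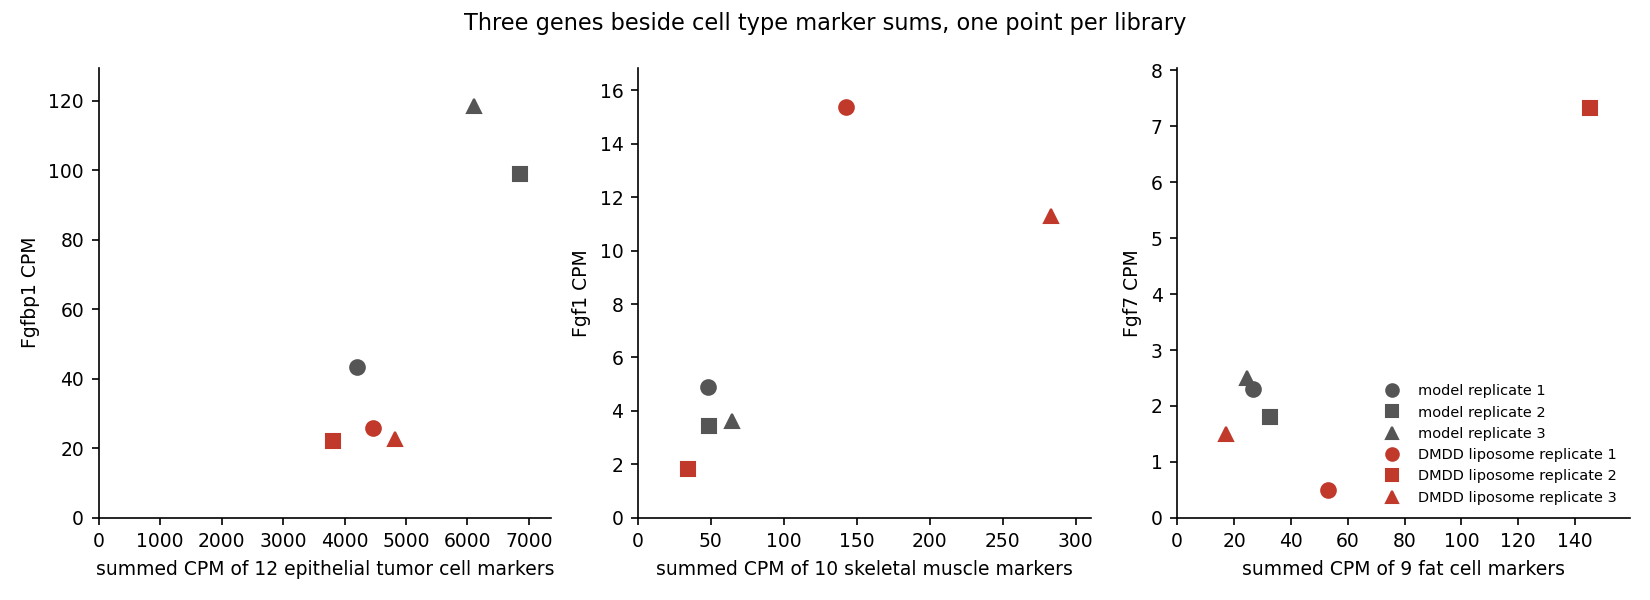
CPM of Fgfbp1, Fgf1 and Fgf7 (vertical axes) against the summed CPM of epithelial tumor cell, skeletal muscle and fat cell markers (horizontal axes), 1 point per library, gray for model and red for DMDD liposome. Model replicate 1 lies among the DMDD liposome libraries in epithelial markers (4204 CPM) and above them in Fgfbp1 (43.5 CPM), while the high values of Fgf1 and Fgf7 lie in the libraries with 143 and 283 CPM of muscle markers and 145 CPM of fat cell markers.

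Of the receptors with a kinase, Fgfr2 and Fgfr1 made up nearly all of the signal. Fgfr2, whose splice forms serve epithelial or stromal cells and are not separated in gene counts, measured 160, 128 and 170 CPM in model tumors, and 106, 91.8 and 162 CPM in treated tumors. treated replicates 1 and 2 were below every model library, and treated replicate 3 was inside the model range. The log2 fold change was -0.35 ± 0.22 (SE), moving between -0.63 without treated replicate 3 and -0.20 without treated replicate 2. Fgfr1, the main receptor of stromal cells, measured 82.1, 96.9 and 81.7 CPM in model tumors, and 57.4, 87.1 and 51.1 CPM in treated tumors. treated replicates 1 and 3 were below every model library, and treated replicate 2, the library high in fibroblast markers, was inside the model range. Its log2 fold change was -0.41 ± 0.20 (SE), -0.69 without treated replicate 2 and -0.27 without treated replicate 3. The part of fibroblast RNA in the Fgfr1 values was not tested.

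Summed per length, Fgfr1 to Fgfr4 came to 48.0, 46.2 and 49.1 FPKM in model tumors and to 34.0, 35.5 and 42.8 FPKM in treated tumors. The sum of receptors was thus lower in every DMDD liposome library than in any model library, although neither Fgfr1 nor Fgfr2 separated the groups alone. This sum too was formed after the values were seen and was not tested. Fgfr2 made up 54.1% to 65.9% of it in model and 49.8% to 74.2% in DMDD liposome, and Fgfr1 31.1% to 40.3% and 23.0% to 46.4%. The ratio of Fgfr2 to Fgfr1 was 1.99, 1.34 and 2.12 in model tumors and 1.88, 1.07 and 3.22 in treated tumors, so its extremes were both in the DMDD liposome group.

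Fgfr3, the third kinase receptor, was far scarcer at 4.14, 11.5 and 6.63 CPM in model tumors and 6.09, 6.04 and 4.84 CPM in treated tumors. Its highest value belonged to model replicate 2, the library with epidermal keratins, and its log2 fold change of -0.39 ± 0.37 (SE) went to 0.06 without that library. The part of keratinocyte RNA in the Fgfr3 values was not tested. Fgfr4 had 0 counts in every model library and 3, 0 and 3 counts in treated tumors, at or under the limit of 3 counts, so no fold is given and it was not tested. Fgfrl1, a receptor without a kinase domain that binds FGFs, measured 68.2, 50.1 and 42.8 CPM in model tumors, and 54.3, 45.1 and 54.6 CPM in treated tumors. The DMDD liposome values lay inside the model range, and the log2 fold change was -0.07 ± 0.18 (SE).

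Fitted over the whole table by edgeR's quasi-likelihood test with Benjamini-Hochberg adjustment, 0 of the 9 tested genes were called, against 0% of the 12891 genes tested. The adjusted p of the 9 ran from 0.603 for Fgfbp1, which equals the smallest adjusted p of all tested genes, to 0.959 for Fgf2. At an unadjusted p under 0.05, the edgeR test held 1 of the 9, Fgfbp1, against 7.65% of all tested genes. Group values were fully separated for 1 of the 9, again Fgfbp1, against 12.9% of all tested genes. The authors' deposited table called 1 of the 10, Fgfbp1, against 0.346% of its genes (0.161% higher in model), and DESeq2's Wald test on the same counts called it too, with 0.408% of the genes given an adjusted p; nothing is read from these counts since that table, made with DESeq2, supplied the choice. Of the 9 tested genes 4 had a positive and 5 a negative log2 fold change, with a median of -0.07, beside 0.01 over all tested genes. Without model replicate 1, edgeR called 112 genes and Fgfbp1 was among them (log2 fold change -2.21, adjusted p = 0.0149; adjusted p from 0.0149 to 0.999 when any 1 library was left out). In log2 CPM, Fgfbp1 in model replicate 1 (5.45) lay between the mean of model replicates 2 and 3 (6.76) and the treated mean (4.56). Fgfrl1 in that library (6.10) lay above both means (5.54 and 5.68). Model replicate 1 was nearer the treated mean in 5 of the 9 genes. The share over all tested genes was not computed, so nothing is read from this count.

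**Figure D4:**
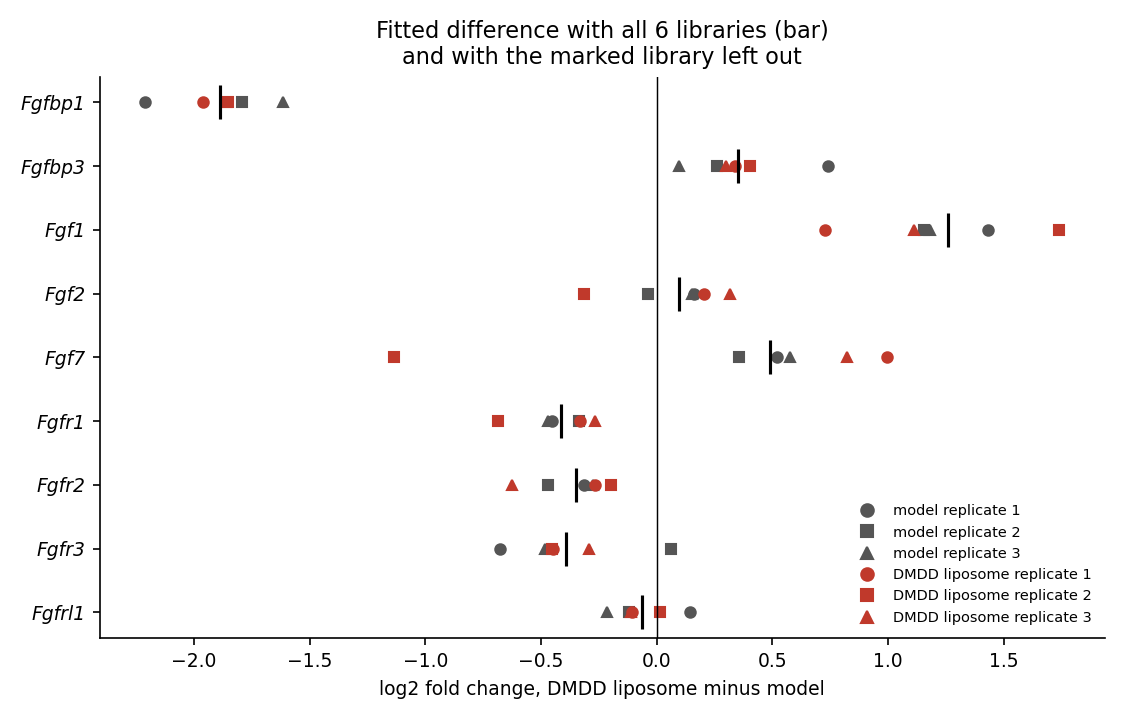
Log2 fold change, DMDD liposome minus model (horizontal axis), of the 9 tested genes fitted with all 6 libraries (black bar) and without the library that each symbol names (gray model, red DMDD liposome). Fgfbp1 stays between -2.21 and -1.61, while Fgf2, Fgf7, Fgfr3 and Fgfrl1 cross 0 when 1 library is left out.

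The genes whose levels over the 6 libraries were most like those of Fgfbp1 were picked by the root mean square difference of centred log2 CPM, among 10814 genes with a mean of at least 5 CPM. Predicted genes and pseudogenes, recognized by their symbols, were passed over. The picked genes were Cwh43 (0.17), Rp1l1 (0.18), Pkp1 (0.27), Odaph (0.36) and Pcyt1b (0.37), against a median difference of 1.0 over all 10814 genes. Pkp1 encodes a plakophilin of desmosomes and Pcyt1b an enzyme of phosphatidylcholine synthesis. Pkp1 had 154, 604 and 512 counts in model tumors and 172, 105 and 110 in treated tumors. Cwh43 had 52, 166 and 196 against 46, 36 and 40 counts. Since the pick used these same libraries, it fixed the direction of the 5 genes and the low value of model replicate 1, and the log2 fold changes of -1.72 to -1.38 are a description.

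Beyond the 10 genes, a list of 106 genes of the FGF pathway had 97 in the table and 81 tested. None of the 81 was called by edgeR, with a smallest adjusted p of 0.626, and 0 of the 97 were called in the authors' deposited table. At an unadjusted p under 0.05 there were 8, 9.88% beside 7.65% of all tested genes, 2 with a positive log2 fold change (4.34% of all tested genes) and 6 with a negative one (3.31%), while groups did not overlap for 5 (6.17%, beside 12.9%). The median log2 fold change of the 81 was -0.01.

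Of 19 other FGF ligands 13 were in the table and 3 were tested, with 0 at an unadjusted p under 0.05. Fgf11, an intracellular FGF homologous factor that is not secreted, was the most abundant, at 3.01 FPKM over all libraries and a log2 fold change of 0.24 ± 0.23 (SE). Fgf17, a secreted ligand, followed at 0.602 FPKM, with 12, 8 and 13 counts in model tumors and 22, 6 and 26 in treated tumors. Its high and low treated libraries were those of Fgf1. Fgf10, the other stromal ligand of the epithelial form of Fgfr2, had 0 to 10 counts, with the 10 in treated replicate 2, where Fgf7 was highest too. The klotho proteins, co-receptors of the hormone-like FGFs, were near 0: Klb had at most 6 counts and Lctl at most 3 in any library, and 0 of the 3 genes were tested.

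Heparan sulfate core proteins, which present FGFs to receptors, had 11 tested genes, of which 8 had a negative log2 fold change, with a median of -0.22. Sdc4 and Sdc1, syndecans of the cell surface, were the most abundant, at 158 and 143 FPKM. Sdc1 measured 427, 525 and 680 CPM in model tumors and 308, 499 and 292 CPM in treated tumors, a log2 fold change of -0.57 ± 0.25 (SE) with overlapping groups. Sdc4 stood at -0.28 ± 0.15. The 1 gene of this list at an unadjusted p under 0.05 was Hspg2, which encodes perlecan, a basement membrane proteoglycan that binds FGFs, with 766, 749 and 632 CPM in model tumors and 441, 576 and 590 CPM in treated tumors (adjusted p = 0.626 by edgeR's quasi-likelihood test).

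Heparan sulfate enzymes had 15 tested genes with a median of 0.04. Hs6st1, a sulfotransferase, and Ext2, a chain polymerase, were the most abundant and stood at -0.08 ± 0.24 and 0.04 ± 0.10 (SE). At an unadjusted p under 0.05 were Ndst1 and Hs2st1, sulfotransferases of the chains (-0.29 and -0.31), and Hpse, the heparanase that cuts them (0.58). Hpse measured 19.5, 13.3 and 13.4 CPM in model tumors and 20.1, 22.6 and 26.3 CPM in treated tumors. These genes, like the others met at that threshold, were named after their values were seen, and their adjusted p was 0.626 to 0.644 by edgeR.

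Downstream of the receptors the median differences were near 0. The 16 receptor adaptors and proximal signaling genes had a median of -0.01, with Plcg2 at -0.32 ± 0.16 and Shc1 at 0.11 ± 0.17 (SE), and 1 gene, the phosphoinositide 3-kinase subunit Pik3r1, at an unadjusted p under 0.05 (0.69). The 10 RAS and MAP kinase genes, 2 positive and 8 negative, had a median of -0.02. Mapk3, which encodes ERK1, stood at -0.01 ± 0.11 and Map2k2, its activating kinase, at -0.15 ± 0.13.

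Feedback inhibitors that FGF signaling induces in many cells had 11 tested genes, 6 positive and 5 negative, with a median of 0.02 and 0 at an unadjusted p under 0.05. Dusp6, a phosphatase of ERK, was the most abundant and measured 520, 559 and 741 CPM in model tumors and 402, 507 and 556 CPM in treated tumors (-0.31 ± 0.18, SE). Spry1, a sprouty protein, stood at 0.32 ± 0.25, in the other direction. The 10 transcriptional targets had a median of 0.01, with the cyclin gene Ccnd1 at -0.39 ± 0.18 and the immediate early gene Ier2 at 0.01 ± 0.36. Etv4, an ETS factor induced by FGF signaling, was at an unadjusted p under 0.05, with 118, 132 and 138 CPM in model tumors and 104, 114 and 108 CPM in treated tumors (-0.25 ± 0.10), groups that did not overlap.

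The 5 tested FLRT and other receptor partners, 3 positive and 2 negative, had a median of 0.46. Flrt3, a membrane protein that binds FGF receptors, stood at -0.04 ± 0.22 (SE). L1cam, an adhesion molecule, had 34, 302 and 307 counts in model tumors and 50, 66 and 60 in treated tumors (-1.75 ± 0.66) and was the 1 gene of this list at an unadjusted p under 0.05. Model replicate 1 had the fewest L1cam counts of all libraries, below every DMDD liposome library, and without it edgeR called L1cam as the 1 pathway gene.

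**Figure D5:**
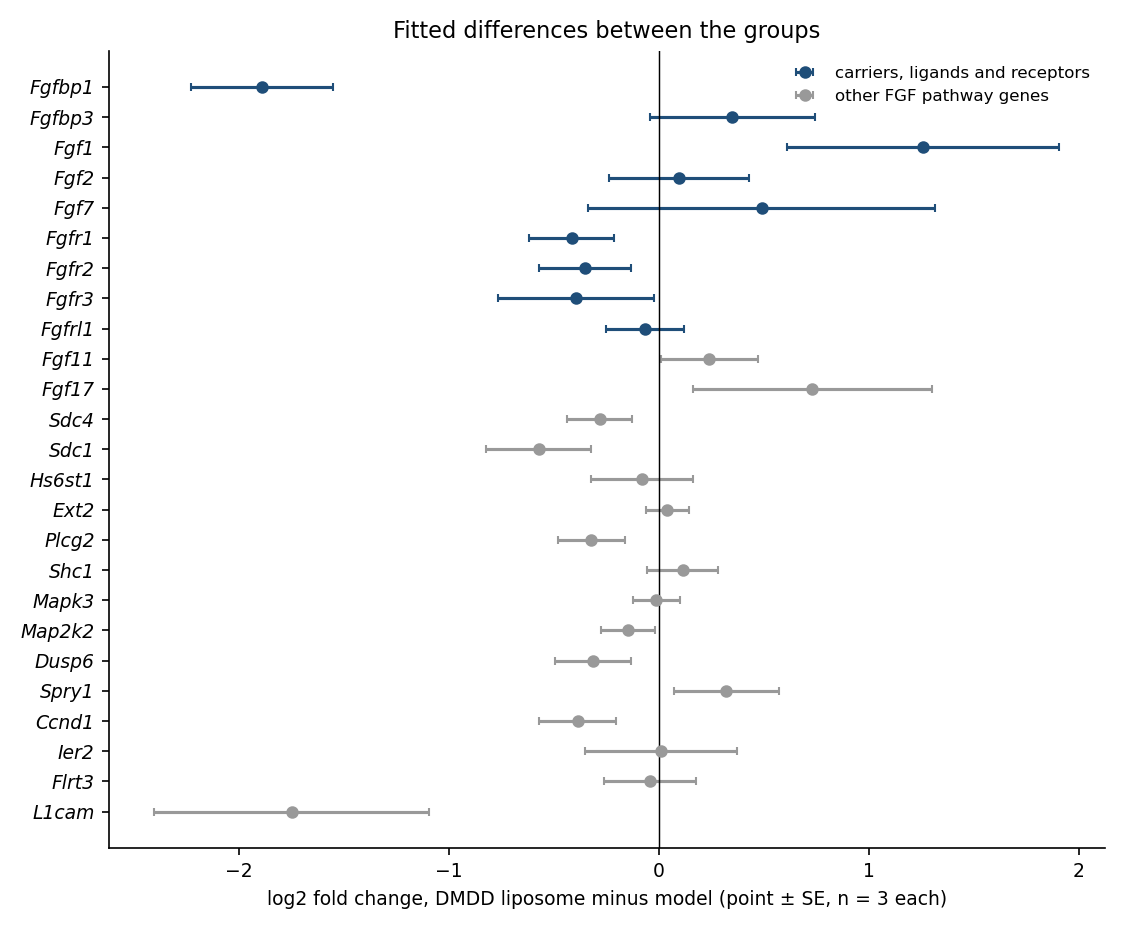
Log2 fold change, DMDD liposome minus model (horizontal axis, point ± SE, n = 3 each), of the 9 tested carriers, ligands and receptors (blue) and the most abundant tested genes of each FGF pathway list (gray). Fgfbp1 (-1.89) and L1cam (-1.75) lie farthest to the left and Fgf1 (1.26) farthest to the right. None of the genes drawn was called by edgeR with all 6 libraries.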

How the data were processed

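Total RNA of 4T1 tumors was sequenced in 3 model and 3 DMDD liposome samples, grouped by their descriptions, which say rat while the organism and strain fields name a mouse. The members and lists were chosen with earlier results of these data known. The deposited table holds raw read counts per gene and FPKM, per the file headers; the FPKM follow from count, column total and a gene length for 16763 of 16763 genes (within 0.1%). A normalized signal deposited by the authors is the count over a size factor per sample. The log2 fold changes and p-values deposited by the authors set model over DMDD liposome, whereas here the treated group is set over model, and DESeq2 and build mm9 are named per the submitters' processing notes. The aligner, the counting tool, the annotation and the strandedness are each not given in the sources used here. For this reason the split of reads shared by overlapping genes or paralogs is unsure.

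Counts were fitted in R 4.3.3 with edgeR 4.0.16: filterByExpr (minimum count 10, minimum total 15) left 12891 tested genes, TMM scaled the libraries, and the quasi-likelihood test was two-sided with an adjusted threshold of 0.05. Standard errors come from the F statistic. Log2 CPM used a prior count of 2. The main edgeR fit, DESeq2's Wald test and limma-voom were run on simulated counts, and the other fits were not. Alternatives were DESeq2 1.42.0 (size factors, Wald test), no filter, limma 3.58.1 voom with quality weights, a replicate block, a threshold of 0.01 and leaving out each library. DESeq2 without each library and edgeR without DMDD liposome replicates 1 and 3 were added after seeing the data. Genes named are the 10 members, the 2 most abundant of each pathway list, any called gene, and the 5 most like Fgfbp1. Predicted genes and pseudogenes were passed over in picking those 5. Outside this rule, pathway genes and epithelial markers at an unadjusted p under 0.05 (Hspg2, Ndst1, Hs2st1, Hpse, Pik3r1, Etv4, Cdh1, Cldn3, Cldn7, Esrp1 and Ovol1), Fgf10, and the markers Krt1, Krt5, Myh4, Adipoq and Plin1 were named after their values were seen. A gene met in the pathway lists is not reported here. Symbols matched a mouse gene name table for 16720 of 16763 genes. Promoters are of another build than the counts and no coordinates were joined to them. Marker lists of epithelial tumor cells, keratinocytes, fibroblasts, pericytes, skeletal muscle, fat, T cells, endothelial cells and macrophages are given beside the results.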

Additional observations from a re-analysis of the deposited data

How the results depend on the processing

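Fgfbp1, Fgfbp3 and Fgfr2 kept the sign of their log2 fold change in all 18 alternatives. edgeR called 0 members with DESeq2 size factors, no filter or a threshold of 0.01, and limma-voom called 0. DESeq2's Wald test called 59 genes, 1 of them a member (Fgfbp1) and 0 of the pathway list. Leaving out 1 library gave, by edgeR, 0 to 112 genes, 0 to 1 members and 0 to 1 pathway genes. DESeq2 called 867, 30 and 18 genes without model replicates 1, 2 and 3 and 20, 128 and 87 without DMDD liposome replicates 1, 2 and 3, with 1 to 3 members (Fgf1 and Fgfr1 added without DMDD liposome replicate 2) and 0 to 9 pathway genes, the 9 without model replicate 1. Ordering by median moved 6 ranks by level.

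Signs reversed with limma-voom for Fgf2 (-0.13), Fgf7 (-0.94) and Fgfrl1 (0.058). Over the edgeR fits without 1 library, Fgf2 ran from -0.31 to 0.31, Fgf7 from -1.14 to 0.997, Fgfr3 from -0.68 to 0.061 and Fgfrl1 from -0.22 to 0.14. DESeq2 gave -0.31 for Fgf2, -1.14 for Fgf7 and 0.012 for Fgfrl1 without DMDD liposome replicate 2, -0.042 for Fgf2 and 0.055 for Fgfr3 without model replicate 2, and 0.14 for Fgfrl1 without model replicate 1. Without DMDD liposome replicates 1 and 3, Fgf1 was at -1.13 and Fgfr1 at 0.0015. The cause was not tested.

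The main fit did not pair libraries by their shared replicate numbers. Same-numbered libraries correlated in their deviations at 0.088, 0.114 and 0.121, and differently numbered ones at -0.164 to 0.032, so each correlated best with its own number. With the replicate block edgeR called 0 genes and 0 members, and Fgf7 turned to -0.15. The SE went from 0.20 to 0.14 for Fgfr1 and from 0.22 to 0.13 for Fgfr2. It rose for Fgf2 (0.33 to 0.36) and Fgfbp3 (0.39 to 0.42) and fell for the other tested members. Depth limits Fgfr4, Klb and other genes near 3 counts.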
